A study of Zea mays with 24 samples.

Results

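The deposited signals were searched for transcripts that were bright in one of 2 maize inbred lines and near background in the other. The sets were chosen by the measured signal itself: a probe set was taken as Han21-only when its mean over 3 arrays was at least 200 units in all 4 Han21 groups and below 50 units in all 4 Ye478 groups, and as Ye478-only in the reverse case. Of 17621 probe sets outside the AFFX controls, 83 met the rule, of which 34 were Han21-only and 49 were Ye478-only. The difference between the lines is therefore how the probe sets were found, and no test of it is given.

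Shoots of seedlings at the 3-leaf stage had been hybridised to 24 oligonucleotide arrays. In each of the inbred lines Han21 and Ye478 there were 4 groups of 3 arrays: a control, plants under moderate drought, plants under severe drought and plants re-watered after drought. The arrays of a group are titled as biological replicates, but the series is described as 2 independent experiments, so p-values measure only the spread between these arrays. The labels give the tissue as shoot, whereas the extraction protocol speaks of mesocotyls. They state neither soil water content nor the length of the treatments. Each line is a single inbred genotype. Of 19 probe sets listed by gene name for green shoots, 17 lay at 200 units or more in both controls, and 13 of 16 listed for seed lay below 50 units in both. The 17 include Zm.400.1.S1_a_at and Zm.400.1.S1_at, listed by the name PDK1. They are annotated to another gene than the probe sets of C4ppdkZm1 and may not mark green shoots. The only root probe set, of zrp4, averaged 71.5 units in the Han21 control and 227.2 in the Ye478 control. Of 2 probe sets listed for pollen by gene name alone, that of ZmPRO5 lay at 200 units or more in both controls. That of PRO1 lay below 50 units in both. A name does not show that a gene is particular to pollen.

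A probe set is a group of short oligonucleotides that all match a transcript of the sequence used to design the array, and its signal summarises how strongly they hybridise. Maize inbred lines are known to differ widely in gene content, with genes present in some lines and missing from others, and also in sequence within shared genes. A signal near background in one line can come with a missing gene, a gene that is not transcribed, or a sequence that no longer matches the oligonucleotides, and in signals of this kind these cannot be told apart. Other probe sets of the same cluster of expressed sequences, which may match the same gene at the same or another place, are described after the drought responses. In bulk shoot tissue, fewer cells of a type and less RNA per cell cannot be told apart either.

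Gene names were scarce. Only 2 of the 83 members carry a gene symbol in the array annotation, against 8.24% of all probe sets, and both are Ye478-only. Zm.2540.1.A1_at is annotated to spds2, a spermidine synthase, the enzyme that makes the polyamine spermidine from putrescine. Zm.480.1.A1_at is annotated to prpo1, a protoporphyrinogen oxidase, which acts in the pathway shared by haem and chlorophyll. The remaining 81 members are given by probe set, and no function is assigned to them. In an identifier such as Zm.2540.1.A1_at, the number after Zm is the cluster of expressed sequences from which the probe set was designed. A suffix _a_at marks probe sets that match several transcripts of a gene, _s_at those that match transcripts of several genes, and _x_at those with probes that may bind unrelated transcripts. Of the Han21-only members 27 of 34 (79.4%) and of the Ye478-only members 41 of 49 (83.7%) have the plain suffix _at, as do 87.4% of all probe sets. Signal also depends on how well the oligonucleotides of a probe set bind, so the order of signals between probe sets is not an order of transcript levels.

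The 34 Han21-only members had mean signals of 240.3 to 2569 units over the 12 Han21 arrays, with a median of 430.5, and of 3.49 to 43.1 units, with a median of 18.7, over the 12 Ye478 arrays. The 49 Ye478-only members had means of 262 to 6950 units in Ye478, with a median of 812, and of 3.68 to 42.3 units, with a median of 18.3, in Han21. Of all probe sets at 200 units or more in the 4 Han21 groups, 7055 in number, 0.482% were Han21-only, and of the 6933 that were so in Ye478, 0.707% were Ye478-only. Both counts of bright probe sets include the 6296 that lay at 200 units or more in all 8 groups.

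Single arrays kept the lines apart in every member. The lowest Han21 array of any Han21-only member read 164 units and the highest Ye478 array 106 units. The lowest Ye478 array of any Ye478-only member read 161 units and the highest Han21 array 112 units. Group means can hide arrays beyond the limits, and 9 Han21-only and 7 Ye478-only members had an array below 200 units in their own line, while 7 and 12 had an array at 50 units or more in the other. Each array's 40th percentile fell between 72.6 and 106.8 units. All 83 members exceeded it throughout their own line, and 79 stayed below it throughout the other. Because the rule asks for a separation, the members' lack of overlap follows from it; among all probe sets, 3.17% had every Han21 array above every Ye478 array, and 3.26% had the reverse.

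**Figure D1:**
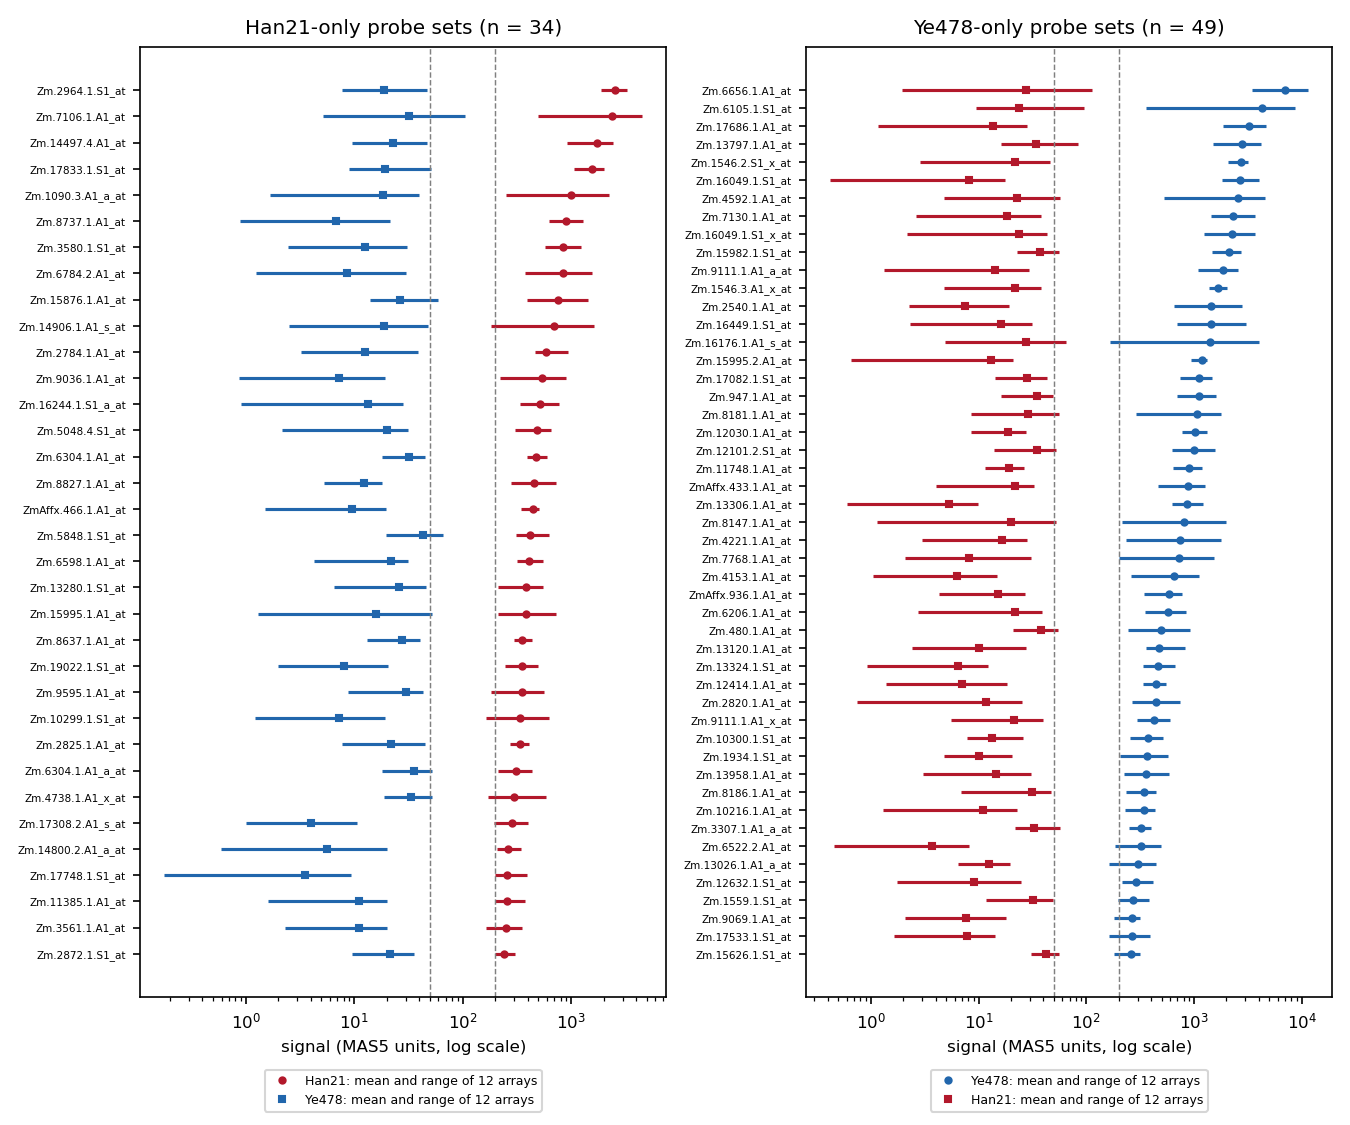
Mean signal (point) and range over 12 arrays (line) of each of the 34 Han21-only (left) and 49 Ye478-only (right) probe sets in both lines, on a log scale in MAS5 units, with dashed lines at 50 and 200 units. No member has overlapping ranges, and the uppermost Ye478-only member, Zm.6656.1.A1_at, had a mean of 6950 units in Ye478.

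Members near the limits show what the rule let in and left out. The Han21-only member with the lowest group mean in Han21 was Zm.14906.1.A1_s_at at 202 units, and ZmAffx.572.1.A1_at missed the floor at 195 units. Its counterpart at the ceiling was Zm.7106.1.A1_at, which reached 48.8 units in a Ye478 group, while Zm.11687.1.S1_at was left out at 50.6 units. Among Ye478-only members, Zm.15626.1.S1_at came in at 214 units and Zm.12064.1.S1_at stayed out at 199 units. Zm.16176.1.A1_s_at came in at 49.4 units in a Han21 group, and Zm.15978.1.A1_at, with at least 1612 units in every Ye478 group, stayed out at 50.3 units. The next probe set out, Zm.9111.3.A1_x_at at 50.3 units, shares a cluster with 2 Ye478-only members.

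Group means of the own line spanned less than 2-fold in most members. The highest group mean was within 2-fold of the lowest in 25 of 34 Han21-only and 33 of 49 Ye478-only members, and it was over 4-fold above it in 3 and 7. Of all probe sets bright in the line, 67.9% in Han21 and 66.9% in Ye478 were within 2-fold, and 6.01% and 6.45% over 4-fold. The floor of 200 units in all groups limits how far a member can fall, so these shares are a description. Zm.2964.1.S1_at is an example of a steady Han21-only member. Its signals were 2498, 2479.9 and 3271 units in control, 2791, 1899 and 2141 under moderate drought, 2647, 2898 and 2339 under severe drought and 2285, 2428 and 3149 after re-watering in Han21, against 7.71 to 46.8 units in Ye478. No Han21 group stood apart from the others, and severe drought differed from control by -0.06 ± 0.29 (SE, adjusted p = 0.88) on the log2 scale. Zm.1546.2.S1_x_at was as steady in Ye478, with 2564, 3117 and 2803 units in control, 2849.5, 3153 and 2859.5 under moderate drought, 2578, 2673 and 2919 under severe drought and 2046, 2385 and 2991 after re-watering, against 2.86 to 46.4 units in Han21.

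Drought responses were tested only within the line in which a member is bright. A limma model of all 24 arrays was fitted to the 12111 probe sets that passed a filter on low signals; all 83 members passed it, through the line in which they are bright. Changes are log2 fold changes of signal plus 4.58 units, with standard errors from this model, n = 3 arrays per group, and Benjamini-Hochberg adjusted p-values over all 12111 probe sets. A member was called changed at an adjusted p under 0.05. One property of the members bears on every count from this model. The spread of the members between replicates was wider on the near-background arrays of the other line than on the arrays of their own: the median within-group SD of Han21-only members was 0.223 on Han21 arrays and 0.606 on Ye478 arrays, and that of Ye478-only members was 0.221 on Ye478 arrays and 0.557 on Han21 arrays, on the log2 scale. It was wider on the other line in 34 of 34 and 48 of 49 members, while probe sets bright in all 8 groups had medians of 0.184 on Han21 arrays and 0.180 on Ye478 arrays. The model of all arrays shares one spread across the lines. A fit of only the 4 groups of the line that has the transcript does not, and its counts stand beside the others.

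In Han21, few of the 34 Han21-only members passed the test in the model of all arrays. Under moderate drought 3 were called against control, 1 higher and 2 lower, where 19.3% of all tested probe sets were higher and 22% lower. Under severe drought 5 were called, 2 higher and 3 lower, where 28.8% of all were higher and 28.7% lower. After re-watering 5 differed from control, 3 higher and 2 lower, with 15.7% and 19.2% of all in these directions. Between re-watered and severe-drought plants 8 differed, 3 higher and 5 lower, with 32% and 32.9% of all. Probe sets that were bright in all Han21 groups, as the members had to be, were called in either direction in 38.9%, 56.7%, 37% and 64.5% of cases, in the same order of comparisons.

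The fit of the Han21 arrays alone called more of them. It called 8 Han21-only members under moderate drought (23.5%), 11 under severe drought (32.4%), 12 after re-watering (35.3%) and 16 between re-watered and severe-drought plants (47.1%). The directions were 5 higher and 3 lower, 5 and 6, 7 and 5, and 8 and 8, so the balance under moderate drought, 1 higher and 2 lower in the model of all arrays, turned. The probe sets bright in Han21 were called in 37.6%, 54.8%, 34.9% and 63.7% of cases in that fit. All calls of the model of all arrays were also made by it. The member share was below that of bright probe sets under moderate drought, under severe drought and between re-watered and severe-drought plants, and close to it between re-watered plants and controls. The counts of the model of all arrays rest on few arrays: under moderate drought the 3 calls became 1 without the second control array or the second moderate-drought array and 0 without the second array of every group. Under severe drought the 5 calls became 3 without the second or the third array of every group. After re-watering the 5 calls became 3 without the first control array, 1 without the second control array, 2 without the third re-watered array, and 2 and 3 without the second and the third array of every group. With every array scaled to the same median, the split under moderate drought was 1 higher and 1 lower.

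Zm.14906.1.A1_s_at had the largest drought response of the Han21-only members. Its signals in Han21 were 236, 188 and 181 units in control, 715, 914 and 939 under moderate drought, 1208, 1322 and 1645 under severe drought and 331, 374 and 307 after re-watering, against 2.53 to 48.0 units in Ye478. All moderate- and severe-drought arrays lay above all controls, and the re-watered arrays lay between. The change was 2.06 ± 0.47 (SE, adjusted p = 0.00113) under moderate drought and 2.76 ± 0.47 (SE, adjusted p = 3.16e-05) under severe drought, and signals fell on re-watering, at -2.02 ± 0.47 (SE, adjusted p = 0.000678) relative to severe drought. The suffix marks it as matching transcripts of several genes.

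Zm.15876.1.A1_at also rose under severe drought in Han21. It read 390.2, 611 and 648 units in control, 607, 862 and 965 under moderate drought, 1016, 1201 and 1432 under severe drought and 438, 499 and 496 after re-watering in Han21 and 13.9 to 59.9 units in Ye478. The severe-drought arrays were above every control, by 1.16 ± 0.31 (SE, adjusted p = 0.00311), and the re-watered arrays overlapped the controls. Zm.6784.2.A1_at was called in the model of all arrays only on re-watering, at -1.43 ± 0.41 (SE, adjusted p = 0.00425) relative to severe drought. The fit of Han21 alone also called it higher than control under moderate drought (adjusted p = 0.0348) and severe drought (adjusted p = 0.00507). In that fit it was lower than control after re-watering (adjusted p = 0.0103).

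Zm.1090.3.A1_a_at moved in opposite ways in the stages of the series. In Han21 it read 594, 747 and 906 units in control, 1265, 1042 and 1415 under moderate drought, 264, 253 and 289.7 under severe drought and 1422, 1642 and 2219 after re-watering, against 1.69 to 39.4 units in Ye478. The severe-drought arrays were below all controls and the re-watered arrays above them. It fell under severe drought, with a change of -1.44 ± 0.43 (SE, adjusted p = 0.00707), and rose on re-watering by 2.67 ± 0.43 (SE, adjusted p = 1.46e-05) relative to severe drought. The re-watered level exceeded control by 1.22 ± 0.43 (SE, adjusted p = 0.0318), a call lost in 4 of 6 fits that left out 1 array, with an adjusted p of up to 0.115 without the third re-watered array. Under moderate drought the change was 0.74 ± 0.43 (SE, adjusted p = 0.185), with an adjusted p of 0.00695 in the fit of Han21 alone.

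Zm.7106.1.A1_at was the Han21-only member that changed most between re-watered plants and controls. Its Han21 signals were 2025, 2261 and 2462 units in control, 3869, 2976 and 4519.5 under moderate drought, 2729.9, 2711 and 3345 under severe drought and 562, 493 and 574 after re-watering, against 5.16 to 106 units in Ye478. Every re-watered array lay below every array of the other Han21 groups. Re-watered plants were lower than control, at -2.04 ± 0.47 (SE, adjusted p = 0.00186), and lower than severe-drought plants, at -2.42 ± 0.47 (SE, adjusted p = 0.000116). Smaller falls under drought were called for Zm.9595.1.A1_at, at -0.84 ± 0.26 (SE, adjusted p = 0.00831) in severe drought, and for Zm.8827.1.A1_at, at -0.79 ± 0.28 (SE, adjusted p = 0.0226). Both calls were lost without 1 array: the adjusted p was 0.0508 for Zm.9595.1.A1_at without the third severe-drought array, and up to 0.0884 for Zm.8827.1.A1_at without the second control array. Zm.14497.4.A1_at, at -0.88 ± 0.38 (SE, adjusted p = 0.0523), was not called in the model of all arrays, and was called in the fit of Han21 alone, with an adjusted p of 0.00486, and under 4 other settings: quantile normalization, the replicate block, 4 times the constant and without the third severe-drought array.

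The largest responses were among the Ye478-only members. Under moderate drought 11 of 49 were called against control in the model of all arrays, 7 higher and 4 lower, where 23.6% of all tested probe sets were higher and 25% lower. Under severe drought 16 were called, 8 higher and 8 lower, where 30.3% of all were higher and 33.3% lower. After re-watering 6 differed from control, 3 higher and 3 lower, with 12% and 16.3% of all in these directions. Between re-watered and severe-drought plants 18 differed, 10 higher and 8 lower, with 31.5% and 34.1% of all. The probe sets bright in all Ye478 groups were called in 46.3%, 62.2%, 26.1% and 64.9% of cases in these 4 comparisons. With every array scaled to the same median, the splits were 9 higher and 5 lower under severe drought and 3 higher and 1 lower after re-watering. The 18 calls between re-watered and severe-drought plants became 10 without the second array of every group, and 3 higher and 7 lower when no constant was added.

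In the fit of the Ye478 arrays alone, 21 members (42.9%) were called under moderate drought, 31 (63.3%) under severe drought, 13 (26.5%) after re-watering and 31 (63.3%) between re-watered and severe-drought plants. The matching shares of probe sets bright in Ye478 were 45.1%, 61.7%, 24.5% and 64.8%. The members were thus called about as often as other bright probe sets of the line in that fit. The directions were 10 higher and 11 lower under moderate drought, 12 and 19 under severe drought, 6 and 7 after re-watering and 19 and 12 between re-watered and severe-drought plants. Whether the shares of the Han21-only and Ye478-only members differ was not tested. The members called in none of the comparisons of treatment with control numbered 25 of 34 Han21-only and 31 of 49 Ye478-only in the model of all arrays, where 26.5% of probe sets bright in Han21 and 27.5% of those bright in Ye478 were called in none. In the fits of single lines they numbered 17 and 13, against 28.9% and 28.4% of bright probe sets.

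**Figure D2:**
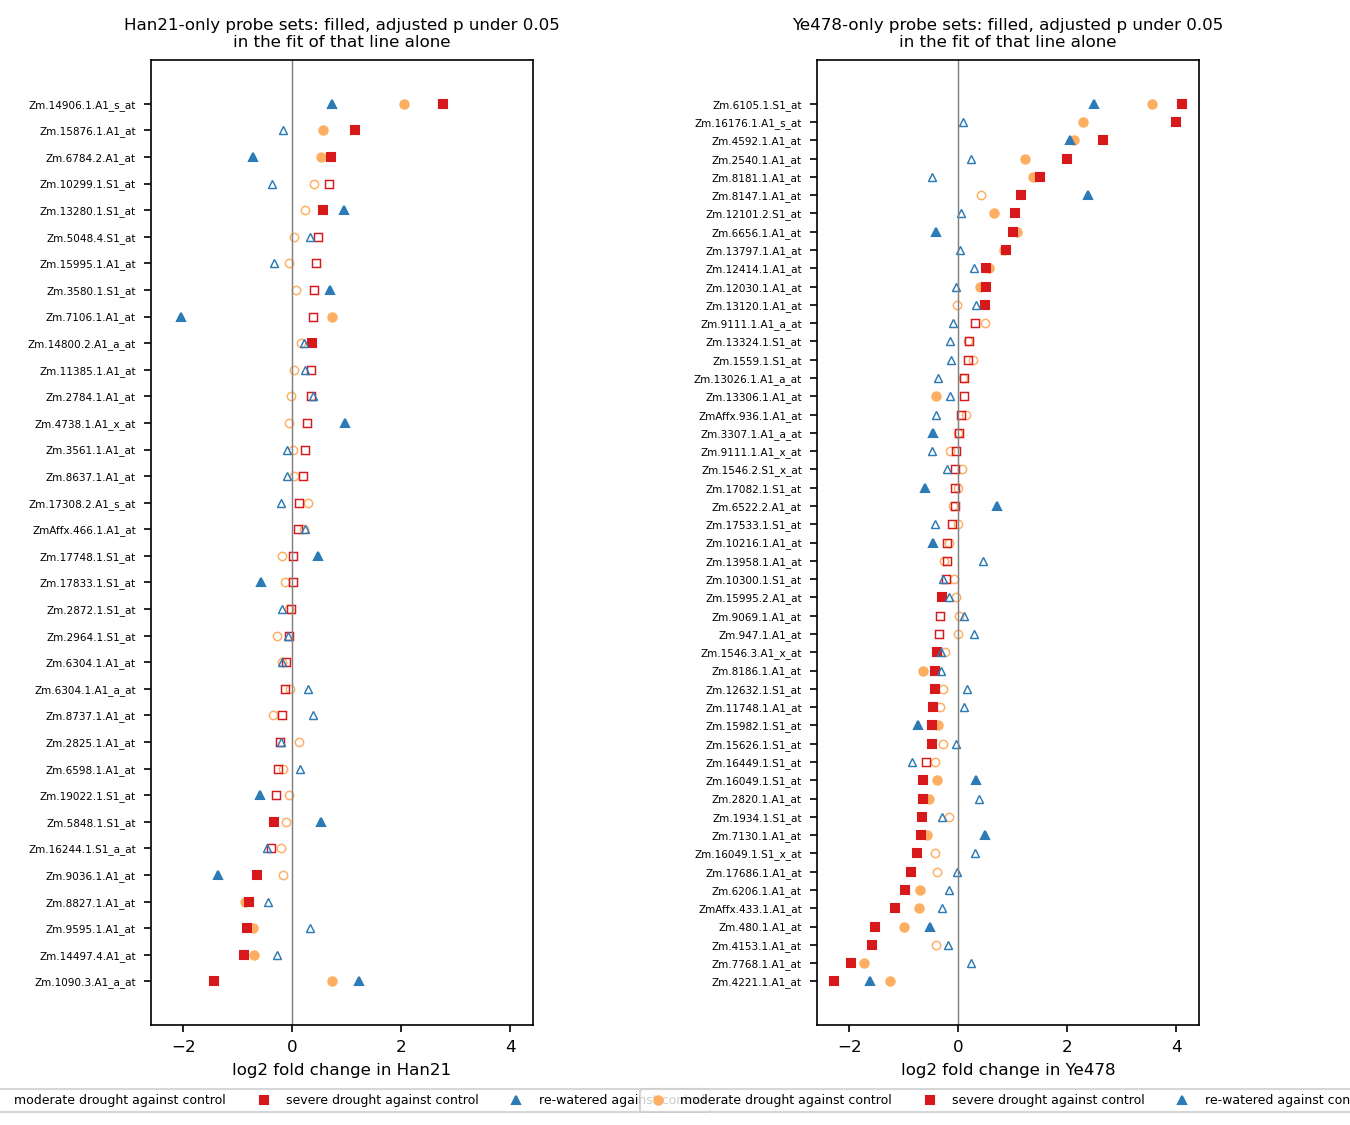
Log2 fold change against control of each Han21-only member in Han21 (left) and of each Ye478-only member in Ye478 (right) under moderate drought (circles), under severe drought (squares) and after re-watering (triangles), ordered by the change in severe drought. Symbols are filled where the fit of that line alone gave an adjusted p under 0.05, and the changes in severe drought run from -1.44 to 2.76 on the left and from -2.28 to 4.11 on the right.

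Zm.6105.1.S1_at rose most of all members. Its Ye478 signals were 389, 735 and 359.5 units in control, 6413, 5326 and 4961 under moderate drought, 8032, 8727 and 7846 under severe drought and 3269, 2464 and 2360.2 after re-watering, against 9.40 to 96.0 units in Han21. Every drought array and every re-watered array was above every control. The change was 3.55 ± 0.48 (SE, adjusted p = 2.51e-06) under moderate drought and 4.11 ± 0.48 (SE, adjusted p = 1.66e-07) under severe drought, and 2.50 ± 0.48 (SE, adjusted p = 0.000404) remained after re-watering.

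Zm.16176.1.A1_s_at rose nearly as far and returned on re-watering. It read 254, 312 and 172 units in control, 1203, 1043 and 1335 under moderate drought, 3854, 3816 and 4013 under severe drought and 326, 311 and 164 after re-watering in Ye478 and 4.93 to 65.0 units in Han21. Each step of drought lay above the one before it, and the re-watered arrays overlapped the controls. It changed by 4.0 ± 0.42 (SE, adjusted p = 4.39e-08) under severe drought and by -3.91 ± 0.42 (SE, adjusted p = 7.06e-08) between re-watered and severe-drought plants. It sits near the ceiling of the rule, since 3 of the Han21 arrays, those at 51.6 and 65.0 units in control and 62.0 units after re-watering, lay above 50 units. The suffix marks it as matching transcripts of several genes. The other probe set of its cluster, Zm.16176.1.A1_at, was below 50 units in all 8 groups. That probe set showed no such rise in Ye478, with means of 34.4 units in control and 27.7 under severe drought, and its Ye478 to Han21 ratio was 0.972.

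Zm.4592.1.A1_at rose and stayed high. Its Ye478 signals were 765, 524 and 668 units in control, 2608, 3127 and 2762 under moderate drought, 3578, 4601 and 4199 under severe drought and 2750.2, 2719 and 2626 after re-watering, against 4.76 to 56.8 units in Han21. No array of the drought or re-watered groups fell within the range of the controls, and the change was 2.66 ± 0.39 (SE, adjusted p = 4.17e-06) under severe drought and 2.06 ± 0.39 (SE, adjusted p = 0.000368) after re-watering.

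The probe set of spds2, the spermidine synthase, rose with drought in Ye478. Zm.2540.1.A1_at read 669, 695 and 675 units in control, 1421, 1680.1 and 1669.7 under moderate drought, 2771, 2752 and 2645 under severe drought and 652, 819.7 and 954 after re-watering there, against 2.25 to 19.0 units in Han21. Moderate- and severe-drought arrays lay above the controls without overlap, and re-watered arrays overlapped the controls. It changed by 1.22 ± 0.33 (SE, adjusted p = 0.00384) under moderate drought and 2.0 ± 0.33 (SE, adjusted p = 1.72e-05) under severe drought, and re-watered plants were at -1.76 ± 0.33 (SE, adjusted p = 7.26e-05) relative to severe drought. No other probe set of the array shares its cluster or its annotated gene, so its near-background signal in Han21 stands on this probe set alone.

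The probe set of prpo1, the protoporphyrinogen oxidase, fell with drought. Zm.480.1.A1_at had 701, 739 and 915 units in control, 338, 364 and 484 under moderate drought, 278, 243 and 282 under severe drought and 538, 518 and 568 after re-watering in Ye478, against 21.0 to 54.4 units in Han21. Every drought array was below every control, and the re-watered arrays lay between the drought arrays and the controls. The change was -0.99 ± 0.21 (SE, adjusted p = 0.000585) under moderate drought and -1.53 ± 0.21 (SE, adjusted p = 2.12e-06) under severe drought, followed by 1.01 ± 0.21 (SE, adjusted p = 0.000301) on re-watering relative to severe drought. Here, too, no other probe set of the array shares its cluster or its annotated gene.

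Other falls in Ye478 were larger. Zm.4221.1.A1_at read 1785, 1531 and 1218 units in control, 825, 629 and 464 under moderate drought, 343, 355 and 232 under severe drought and 594, 488 and 399.9 after re-watering in Ye478, against 3.0 to 28.0 units in Han21. It fell under severe drought, at -2.28 ± 0.33 (SE, adjusted p = 4.32e-06), and was still below control after re-watering, at -1.61 ± 0.33 (SE, adjusted p = 0.000923). Zm.4153.1.A1_at was called lower than control in the model of all arrays only under severe drought, at -1.58 ± 0.40 (SE, adjusted p = 0.00155). Its 3 severe-drought arrays read 311, 285 and 258 units, below the controls at 631, 1068 and 927 units.

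Zm.6656.1.A1_at shows how the spread in the other line bears on a call. Its Ye478 signals were 5685, 4259 and 4309 units in control, 9911, 11440.0 and 8778 under moderate drought, 10399, 8996 and 9003 under severe drought and 3549.8, 3481 and 3588 after re-watering, whereas the Han21 arrays scattered from 1.94 to 112 units. All drought arrays lay above the Ye478 controls and all re-watered arrays below them. Severe drought gave 1.0 ± 0.75 (SE, adjusted p = 0.25) in the model of all arrays, and an adjusted p of 2.59e-05 in the fit of Ye478 alone. Zm.17686.1.A1_at was another such member, at -0.87 ± 0.45 (SE, adjusted p = 0.1) under severe drought and an adjusted p of 0.000353 in the fit of Ye478 alone.

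**Figure D3:**
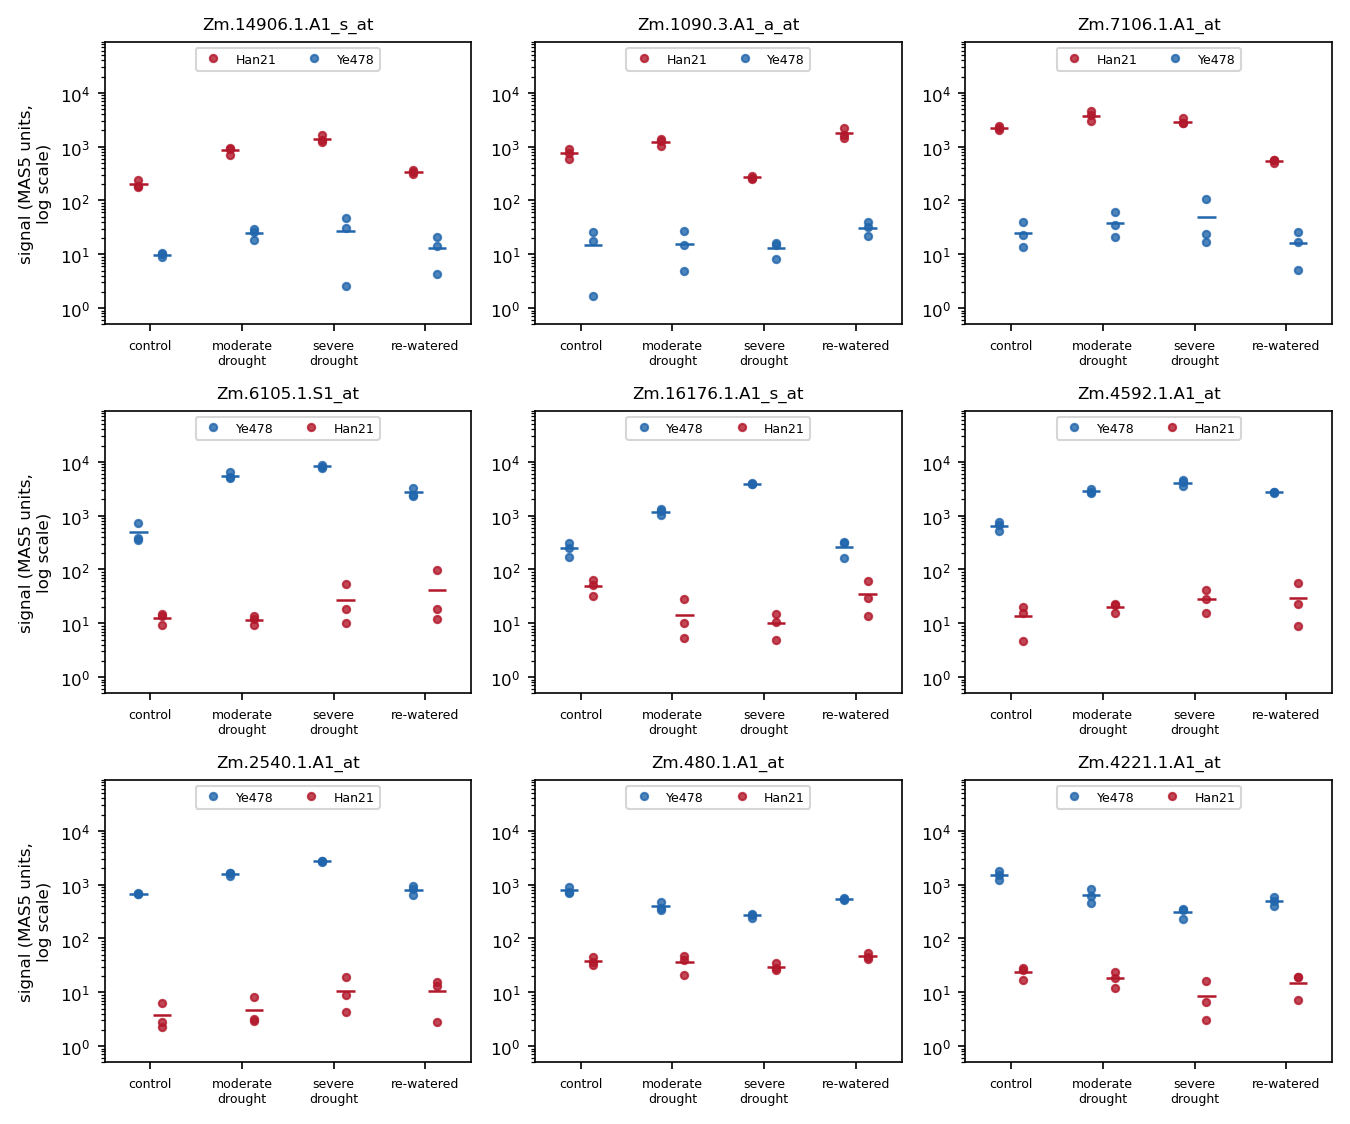
Signal on every array (points, log scale, MAS5 units) and group mean (bars) of 3 Han21-only members (top row, Han21 left of Ye478) and 6 Ye478-only members (lower rows, Ye478 left of Han21) in control, moderate drought, severe drought and re-watered plants. Zm.6105.1.S1_at reached 8032, 8727 and 7846 units under severe drought in Ye478. The arrays of the lines did not overlap in any panel, a separation for which the members were chosen. For Zm.16176.1.A1_s_at the highest Han21 array read 65.0 units and the lowest Ye478 array 164 units.

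Whether other probe sets of the same gene agree could be asked of some of the members. None could be matched by gene annotation. By cluster number, 13 of 34 Han21-only and 22 of 49 Ye478-only members share a cluster with at least 1 other probe set (38.2% and 44.9%, against 38.9% of all probe sets), and 21 and 27 are alone. A cluster can hold related genes, so a shared number is a limited sign of a shared gene, and probe sets of one cluster may share probes and are not replicates. The clusters held 51 other probe sets for Han21-only members and 39 for Ye478-only members, of which 3 and 7 are members themselves. Among the rest, 7 and 11 lay below 50 units in all 8 groups and were not counted for a line difference. Even so, Zm.5048.4.A1_a_at read 10.7 to 30.2 units in Han21 and 0.529 to 7.97 units in Ye478. ZmAffx.433.1.S1_at read 8.52 to 45.3 units in Ye478 and 0.327 to 8.34 units in Han21. In the others of these dim probe sets the arrays of the lines overlapped, though not always around a like mean. Their ratios of the member's line to the other ran from 0.647 for Zm.6206.1.S1_at to 9.865 for ZmAffx.936.1.S1_at, at signals near background.

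Most of the remaining probe sets, 41 for Han21-only and 21 for Ye478-only members, did not follow the member. In 35 of 41 and 15 of 21 the arrays of the lines overlapped. Of the 35, 11 belong to cluster Zm.14497 and 10 to cluster Zm.5048. In 4 of 41 and 5 of 21 every array of the member's line lay above every array of the other, and in 2 of 41 and 1 of 21 the order was the reverse. The ratio of the mean in the member's line to that in the other line had a median of 1.17 and 1.05, where the members themselves were chosen for large ratios. Counted by member, 3 of the 10 Han21-only and 7 of the 16 Ye478-only members with such a probe set had at least 1 that separated the lines in the same direction. Most of these agreeing probe sets differ from a member only in suffix and may share probes with it.

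**Figure D4:**
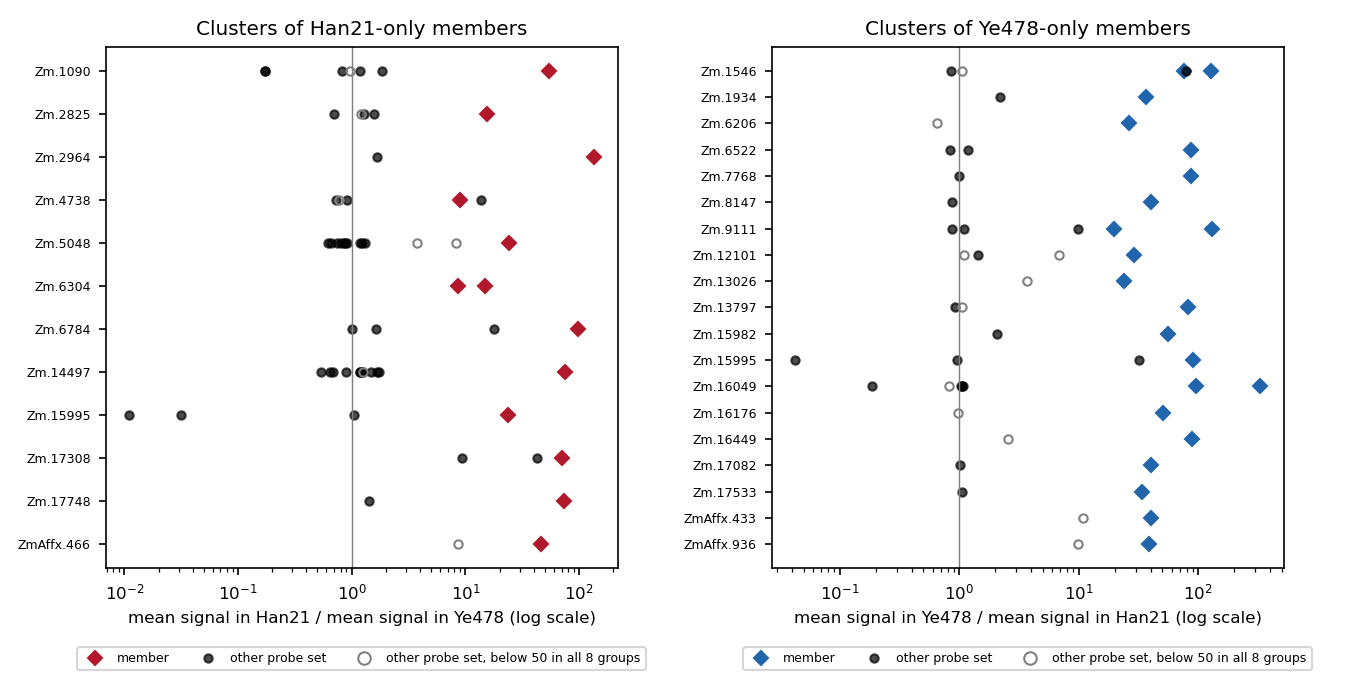
Ratio of the mean signal in the line that has the member to the mean in the other line, on a log scale, for members (diamonds) and for the other probe sets of their clusters (circles, open where below 50 units in all 8 groups), by cluster, for Han21-only (left) and Ye478-only (right) members. The filled circles gather near a ratio of 1, with medians of 1.17 and 1.05, and a few lie with the diamonds or on the opposite side.

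Probe sets that sided with a member were the minority. In cluster Zm.17308, the Han21-only member Zm.17308.2.A1_s_at was accompanied by Zm.17308.1.A1_a_at and Zm.17308.1.A1_at, with ratios of Han21 to Ye478 of 42.6 and 9.25. Zm.17308.1.A1_a_at read 125 to 300.3 units on the Han21 arrays and 0.334 to 11.6 units on the Ye478 arrays. Zm.6304.1.A1_at and Zm.6304.1.A1_a_at are both Han21-only and are the whole of their cluster on the array, although they differ only in suffix and may share probes. Zm.4738.1.A1_at and Zm.6784.2.A1_x_at, with ratios of 13.7 and 17.8, also sided with Han21-only members, but 2 further bright probe sets of each cluster overlapped between the lines. Both differ from their member only in suffix and may share probes with it.

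For Ye478-only members, at least 1 other probe set sided with the member in clusters Zm.1546, Zm.9111, Zm.15995, Zm.15982 and Zm.1934. Zm.1546.2.S1_a_at had a Ye478 to Han21 ratio of 78.7, beside the members Zm.1546.2.S1_x_at and Zm.1546.3.A1_x_at, while Zm.1546.1.A1_at overlapped between the lines at a ratio of 0.854. Zm.9111.3.A1_x_at had a ratio of 9.88 beside 2 members of its cluster, in which Zm.9111.2.A1_a_at and Zm.9111.2.A1_x_at overlapped at ratios of 1.09 and 0.871. The probe sets Zm.15982.1.S1_s_at and Zm.1934.1.S1_s_at separated the lines by much less, with ratios of 2.07 and 2.19. Like Zm.1546.2.S1_a_at and Zm.15995.2.A1_x_at, they differ from a member only in suffix and may share probes with it.

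Cluster Zm.15995 holds members of both kinds. Zm.15995.1.A1_at is Han21-only, with 213 to 719 units in Han21 and 1.29 to 52.7 units in Ye478. Zm.15995.2.A1_at is Ye478-only, with 942 to 1327 units in Ye478 and 0.662 to 20.9 units in Han21. Another probe set, Zm.15995.1.A1_a_at, read 1664 to 2676 units in Han21 and 1782 to 2461 units in Ye478, a ratio of 1.04. Zm.15995.2.A1_x_at sided with Ye478, at 1341 to 1879 units there and 32.3 to 73.8 units in Han21. None of these was called under severe drought in the model of all arrays.

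In cluster Zm.16049, 2 Ye478-only members stood beside probe sets with equal signal. Zm.16049.1.S1_at read 1799 to 3985 units in Ye478 and 0.421 to 17.5 units in Han21. Zm.16049.2.A1_at read 4763 to 7999.9 units in Ye478 and 4760.3 to 8024 units in Han21, and the probe sets of that design had ratios of 1.03 to 1.08. Zm.16049.3.S1_at went the other way, with 9.06 to 47.3 units in Ye478 and 59.9 to 173 units in Han21.

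The drought response of the overlapping probe sets was tested in both lines, since the rule did not use them. For Han21-only members, 19 of 35 were called under severe drought in Han21 and 18 in Ye478, with 14 called the same way in both lines and 1 opposite ways. Of the 14, 11 belong to cluster Zm.14497, and 3 are among the 24 of other clusters. For Ye478-only members, 9 of 15 were called in Ye478 and 7 in Han21, with 5 the same way and 1 opposite ways. Of all tested probe sets 45.2% were called the same way in both lines, and of those at 200 units or more in all 8 groups 44.2%. The response itself differed between the lines in 9 of 35 and 2 of 15, against 16.2% of all tested probe sets.

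In cluster Zm.7768 the companion fell under severe drought in both lines. The Ye478-only member Zm.7768.1.A1_at read 1257, 1018 and 870.5 units in control, 397, 256 and 299 under moderate drought, 319, 202 and 279 under severe drought and 1543, 1188 and 985 after re-watering in Ye478, against 2.07 to 30.7 units in Han21. It fell under severe drought in Ye478, at -1.97 ± 0.34 (SE, adjusted p = 3.74e-05), and recovered on re-watering. The identifier of Zm.7768.1.A1_s_at differs from the member's only in suffix. That suffix marks it as matching transcripts of several genes, so its signal need not be that of the member's gene. Zm.7768.1.A1_s_at read 1118, 1135 and 1047 units in control, 242, 361 and 193 under moderate drought, 105, 119.8 and 89.2 under severe drought and 1175, 1223 and 1206 after re-watering in Ye478. In Han21 it read 1641, 1515 and 1126 units in control, 482, 270.3 and 261 under moderate drought, 241, 140.5 and 92.4 under severe drought and 724, 866 and 752 after re-watering. Its line means had a ratio of 0.988, and it fell in both, at -3.35 ± 0.27 (SE, adjusted p = 6.13e-10) in Ye478 and -3.23 ± 0.27 (SE, adjusted p = 1.69e-09) in Han21. These falls did not differ beyond their errors (adjusted p = 0.873 for the difference between the lines). After re-watering its arrays lay above all controls in Ye478 and below all controls in Han21, a difference that was not tested.

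Zm.13797.2.A1_at likewise rose in both lines, by 1.69 ± 0.33 (SE, adjusted p = 0.000148) in Ye478 and 2.10 ± 0.33 (SE, adjusted p = 1.51e-05) in Han21, with a ratio of line means of 0.918. The member of its cluster, Zm.13797.1.A1_at, read 1484 to 4179 units in Ye478 and 16.3 to 83.1 units in Han21, and changed by 0.88 ± 0.33 (SE, adjusted p = 0.0231) under severe drought in Ye478. That call was lost in 4 of 6 fits without 1 array, with an adjusted p of up to 0.0767 without the first severe-drought array.

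Cluster Zm.8147 differed from these. Zm.8147.1.A1_at, Ye478-only, read 447, 357 and 213 units in control, 485, 341 and 496 under moderate drought, 847, 633 and 709.9 under severe drought and 1977, 1953 and 1285 after re-watering in Ye478, against 1.14 to 51.9 units in Han21. It rose after re-watering, by 2.38 ± 0.39 (SE, adjusted p = 6.54e-05) relative to control. Under severe drought it changed by 1.15 ± 0.39 (SE, adjusted p = 0.0129), a call lost without the third control array (adjusted p = 0.0831). Its companion Zm.8147.1.A1_s_at was detected in both lines, with 166, 139 and 58.9 units in control, 198, 167 and 258 under moderate drought, 364, 277 and 341 under severe drought and 689.8, 662 and 532 after re-watering in Ye478 and 309, 200.2 and 291 units in control, 56.6, 38.7 and 69.1 under moderate drought, 95.9, 78.8 and 142 under severe drought and 1048, 1037 and 1039.7 after re-watering in Han21. Under severe drought the companion rose in Ye478, by 1.51 ± 0.29 (SE, adjusted p = 0.000107), and fell in Han21, at -1.32 ± 0.29 (SE, adjusted p = 0.000526), and the responses differed between the lines (adjusted p = 5.90e-05). After re-watering the companion was high in both lines. Its suffix marks it as matching transcripts of several genes, so its signal need not be that of the member's gene.

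**Figure D5:**
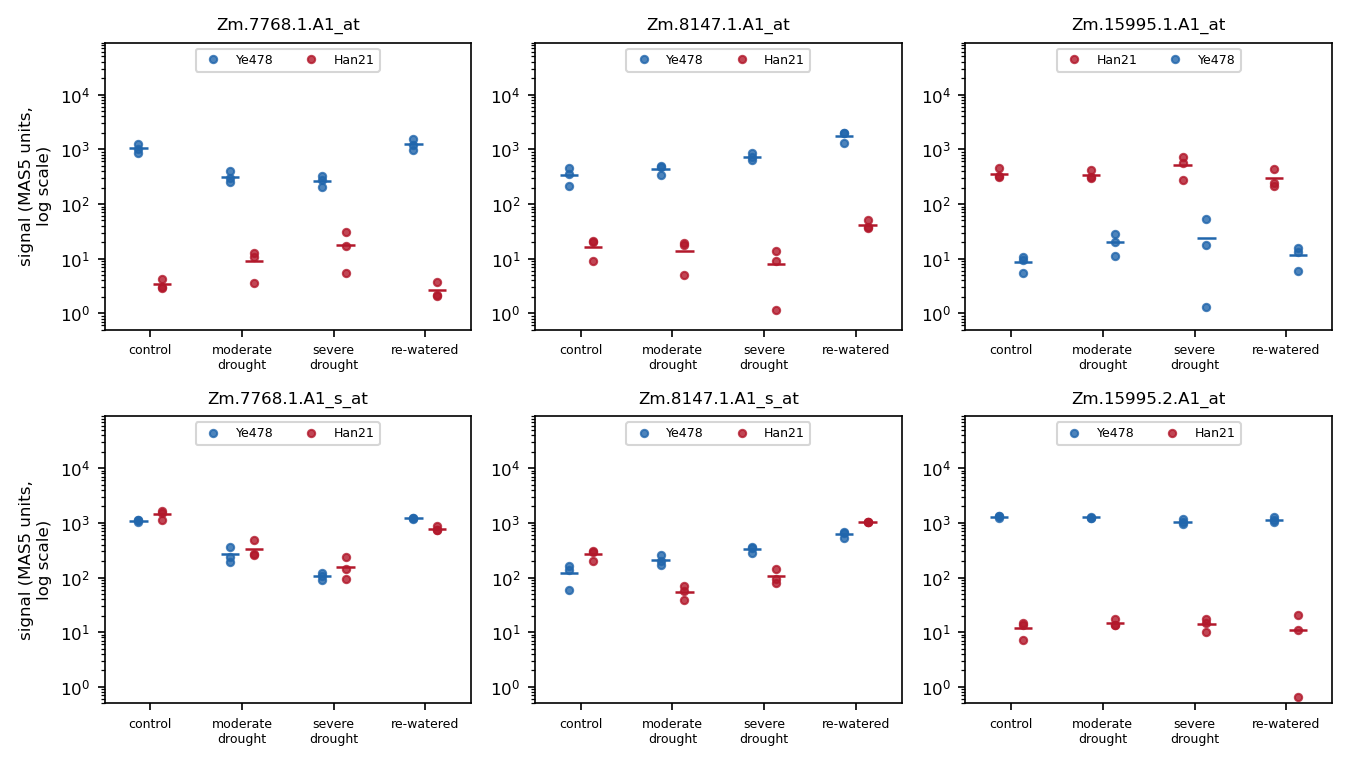
Signal on every array (points, log scale, MAS5 units) and group mean (bars) for 2 Ye478-only members and their companions (left and middle columns, Ye478 left of Han21) and for the Han21-only and the Ye478-only member of cluster Zm.15995 (right column, line of the member on the left). The companion of Zm.7768.1.A1_at fell in both lines, that of Zm.8147.1.A1_at rose in Ye478 and fell in Han21 under severe drought, and the members of Zm.15995 are bright in opposite lines.

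In cluster Zm.1090, 3 of the 4 overlapping companions of the Han21-only member also fell under severe drought in Han21. Under severe drought Zm.1090.1.A1_x_at changed by -1.75 ± 0.26 (SE, adjusted p = 6.16e-06) in Han21 and by -0.08 ± 0.26 (SE, adjusted p = 0.804) in Ye478, and Zm.1090.2.A1_a_at by -1.49 ± 0.23 (SE, adjusted p = 7.94e-06) in Han21 and -0.14 ± 0.23 (SE, adjusted p = 0.612) in Ye478. Both had overlapping arrays in the lines, with Han21 to Ye478 ratios of 0.82 and 1.19. The next, Zm.1090.3.A1_x_at, changed by -1.03 ± 0.28 (SE, adjusted p = 0.00366) in Han21. Zm.1090.4.S1_x_at did not pass there, at -0.32 ± 0.29 (SE, adjusted p = 0.358), and its Han21 to Ye478 ratio was 0.172. Zm.1090.4.S1_at read below every Ye478 array on every Han21 array, at the same ratio. The suffixes of these probe sets allow for shared or unrelated targets.

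Cluster Zm.14497 holds Zm.14497.1.A1_at, annotated to his2b5, a histone H2B that packs DNA in chromatin. All 11 overlapping probe sets of this cluster fell under severe drought in both lines. The Han21-only member Zm.14497.4.A1_at read 2176, 2201 and 2453 units in control, 1286, 1065 and 2003 under moderate drought, 1226, 915 and 1658 under severe drought and 1954, 1675 and 2001 after re-watering in Han21, against 9.49 to 46.9 units in Ye478. Cluster Zm.5048, with probe sets annotated to pdi7, a protein disulfide isomerase that helps secreted proteins fold, holds the Han21-only member Zm.5048.4.S1_at and 10 other bright probe sets, all overlapping between the lines. Whether these members belong to the annotated genes of their clusters is not given in the annotation.

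RNA quality was read from 7 pairs of control probe sets at the 3' and 5' ends of maize transcripts. The log2 ratio of 3' to 5' signal, which rises as RNA degrades, was higher in severe drought than in control in 5 of 7 pairs in Han21 and 4 of 7 in Ye478, and lower in the rest. The means of the 2 actin pairs differed in opposite directions. One averaged 1.03 ± 0.32 under severe drought and 1.87 ± 0.16 in control in Han21, and 1.13 ± 0.36 and 2.03 ± 0.24 in Ye478 (SD, n = 3). The other averaged -1.23 ± 1.07 under severe drought and -3.17 ± 1.0 in control in Han21, and 0.16 ± 0.97 and -3.11 ± 3.28 in Ye478. A gapdh pair averaged 2.37 ± 1.71 under severe drought and -0.71 ± 2.42 in control in Ye478. The part of RNA quality in the members' responses was not tested. On the log2 scale, replicate arrays correlated at r = 0.939 to 0.979 across the brighter probe sets, those with a mean signal above the median. The dimmer ones were left out, and probe sets are not independent. Median signals of the arrays lay between 154.4 and 192.9 units.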

How the data were processed

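The deposited values are signal intensities on a linear scale, 1 per probe set and array, from 24 Affymetrix maize arrays with 17734 probe sets each. GCOS and MAS5 are named, per the submitters' processing notes, without versions. The 2% trimmed mean of the intensities was 500.1 to 500.2 on every array, so the deposited arrays share a scale, and no further normalization was applied. Raw probe values were not analysed here.

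Arrays were grouped by line and treatment from their titles. The 113 AFFX control probe sets were set aside, and the rule on group means was applied to the other 17621. Gene names came from the platform annotation, and synonyms from RefSeq (Zm-B73-REFERENCE-NAM-5.0). A constant of 4.58, the 10th percentile of all values, was added before taking log2. Probe sets above the 40th percentile of the array on at least 3 arrays were tested (12111 kept, 5510 removed). A limma model (eBayes with trend) with 1 mean per group used all 24 arrays. It had 16 residual degrees of freedom, to which the prior added 5.02, and each contrast's p-values were adjusted after Benjamini-Hochberg. The number of arrays limits the precision. The calling was tested on data simulated for severe drought against control in Han21, with 200 of 12111 probe sets changed. Changes of 1 log2 unit were called in 75% of cases and those of 2 log2 units in 98%. There were 15 false calls, 7.98% of the total and above the nominal share. All simulated arrays started from the Han21 control means, with 1 spread per probe set and independent noise. They lack the members' wider spread in the other line and any correlation between arrays. How often changes of members are called was therefore not tested.

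Deviations from the group mean correlated between arrays that share a replicate number (r of 0.154 to 0.692 over the probe sets of each pair). The replicate number was therefore taken to pair the arrays. The standard errors and p-values printed here come from fits without a replicate block and do not use this pairing. A fit with the replicate number as a block was an alternative. The others were other thresholds of the rule, scaling by quantiles or to equal medians, no constant or 4 times the constant, a stricter filter (60th percentile) or none, a fit of the 4 groups of one line, eBayes with no trend, a limit of 2-fold, other matching of probe sets, and leaving out each replicate.

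Named probe sets were, in each set, the members with a gene symbol, the 5 brightest, the 4 largest called rises and the 4 largest called falls in severe drought, the 3 nearest each threshold inside and outside it, and the other probe sets of the members' clusters. Lists by gene title could not be applied, since the annotation used here holds symbols only. The members and lists were chosen with earlier results of these data known. The fits ran in limma 3.58.1 under R 4.3.3. Tables and plots used numpy 2.4.6, matplotlib 3.10.9 and pandas 2.3.3 under Python 3.11.15.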

Additional observations from a re-analysis of the deposited data

Results flagged for a closer look

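Of the other probe sets in the members' clusters, 11 that overlapped between the lines responded to severe drought differently in Han21 and Ye478, by limma's test of the difference itself (adjusted p under 0.05 over all tested probe sets). Values are the Han21 minus the Ye478 log2 fold change of severe drought against control.

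The largest difference was that of Zm.8147.1.A1_s_at, the companion of a Ye478-only member, at -2.83, since it fell in Han21 and rose in Ye478. Its suffix marks it as matching transcripts of several genes. Zm.17533.2.A1_at, also in a cluster of a Ye478-only member, differed by -0.53, with a smaller rise in Han21 than in Ye478.

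The other 9 lie in clusters of Han21-only members. In cluster Zm.1090, Zm.1090.1.A1_x_at differed by -1.67 and Zm.1090.2.A1_a_at by -1.35, with falls called in Han21 and not in Ye478. In the histone cluster Zm.14497, where all overlapping probe sets fell in both lines, Zm.14497.11.S1_at fell less in Han21 (2.41), and Zm.14497.13.A1_a_at (-1.34) and Zm.14497.13.A1_x_at (-0.95) fell more in Han21. In cluster Zm.5048, Zm.5048.3.S1_x_at differed by 0.65, Zm.5048.6.A1_a_at by 0.99 and Zm.5048.6.A1_at by 1.45. The first of these was called higher in Han21 alone, and the other two were called lower in Ye478 alone. Zm.6784.1.A1_at differed by -0.63, called lower in Han21 and higher in Ye478. Probe sets of one cluster may share probes, so they are not independent cases.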

How the results depend on the processing

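The number of members moved with the thresholds that define them. It was 93 Han21-only and 99 Ye478-only with a floor of 100 units, 13 and 25 with a floor of 400, 60 and 76 with a ceiling of 100, 17 and 27 with a ceiling of 25, and 19 and 32 when every array had to meet the limits. Matching probe sets by annotation alone left 0 and 0 members with another probe set.

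The counts of changed members depended on the model. For Han21-only members the fit of Han21 alone called 8 under moderate drought, 11 under severe drought, 12 after re-watering and 16 between re-watered and severe-drought plants, against 3, 5, 5 and 8 in the model of all arrays. For Ye478-only members the fit of Ye478 alone called 21, 31, 13 and 31, against 11, 16, 6 and 18. With no constant the first 3 Han21 counts were 1, 3 and 3, and the last Ye478 count was 10, with 3 higher and 7 lower against 10 and 8 with the constant. With 4 times the constant, Han21-only calls were 10 in severe drought and 13 between re-watered and severe-drought plants, and Ye478-only calls were 10 after re-watering and 30 between re-watered and severe-drought plants. Of the calls, 1, 3 and 3 in the first 3 Han21 comparisons, and 7 under moderate drought and 9 between re-watered and severe-drought plants in Ye478, were at least 2-fold. Leaving out replicates gave 0 to 3, 3 to 6 and 1 to 5 calls in the first 3 Han21 comparisons and 10 to 17 in the last Ye478 comparison. Calls made without any 1 array of the groups compared numbered 1, 3, 1 and 7 for Han21-only and 8, 11, 4 and 11 for Ye478-only members. With the replicate block the counts were 3, 6, 5 and 9 for Han21-only and 11, 17, 8 and 22 for Ye478-only members.

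Scaling arrays to equal medians moved the median change of all probe sets under severe drought to 0.14 in Han21 and 0.18 in Ye478, where it was 0.03 and -0.02 without it. Among the single changes of named members, 3570 values under the alternatives kept their side of the threshold, 159 lost it and 87 gained it, and none that was called changed direction. The change of a group near background depends on the constant, and no depth of signal allows the members' response in the other line to be read.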
